A study of Mus musculus with 2 samples.

Results

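The wide YY1 peaks are the stretches of the mouse genome, each at least 800 bp long, that the peak caller reported as a single enriched stretch in YY1 ChIP-seq of muscle stem cells (MuSCs). They were selected on width from the deposited peak list, leaving out the Rn4.5s repeat array on chromosome 6 (47649921 to 47783166), and number 210 of 4681 peaks (4.49%). The array itself held 25 peaks, 8 of them at least 800 bp long, and the remaining 4446 peaks are called the other peaks. Since width was read from the same library as every other column of the list, the fold enrichments, fragment numbers and p-values below describe the members and are not tested.

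The study asked where YY1 binds in MuSCs of dystrophic muscle, after deleting Yy1 from these cells in mdx mice, a model of Duchenne muscular dystrophy. The ChIP cells came, per the paper, from Ctrl animals, Pax7CreERT2/R26YFP; Yy1+/+; mdx, in which a tamoxifen-inducible Cre driven by Pax7 switches on a yellow fluorescent reporter at the Rosa26 locus in MuSCs but leaves Yy1 intact. The paper describes the cells as freshly isolated from mdx mice and pooled over several animals, whereas the labels give a culture protocol and the design text says WT. There was 1 YY1 library and 1 background library (input in the labels, IgG in the Methods), so no spread between animals could be computed.

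YY1 is a zinc-finger factor that can activate or repress genes and that also helps hold enhancers and promoters together in loops. Its recognition sequence, AANATGGC, often lies just downstream of start sites of housekeeping genes, where it can overlap the first codon of the gene. A peak caller joins neighbouring enriched bases into a single peak, so a wide peak may hold several binding sites, several start sites or a long even stretch of signal. The summit is the base with the most fragments.

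Reference sequence is printed here for the members whose letters matter to the results below. The wide peak with the most copies of the YY1 motif lay in the Yy1 gene itself. Its motif cluster, at chr12:108794128-108794255 on the plus strand of GRCm38 (mm10), sits in the intron after exon 1, which ends at 108794091, and its 4 matches are in capitals (a match on the minus strand reads GCCATNTT here).
Yy1: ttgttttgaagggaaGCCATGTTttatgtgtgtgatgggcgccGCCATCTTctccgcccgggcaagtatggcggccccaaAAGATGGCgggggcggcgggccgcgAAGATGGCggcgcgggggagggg

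The next sequences are the matches within 100 bp of the summit of the 5 motif-bearing wide peaks with the highest fold enrichment. Each is read along the strand of its motif, with 15 bases either side and the motif in capitals. They lie at chr11:74925898-74925935 (Smg6, plus), chr5:72914364-72914401 (Slain2, plus), chr12:59131042-59131079 (Mia2, minus), chr1:93478769-93478806 (Hdlbp, minus) and chr4:116075391-116075428 (Lrrc41, plus).
Smg6: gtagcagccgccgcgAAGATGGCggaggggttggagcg
Slain2: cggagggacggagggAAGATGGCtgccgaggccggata
Mia2: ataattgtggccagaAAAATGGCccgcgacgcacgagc
Hdlbp: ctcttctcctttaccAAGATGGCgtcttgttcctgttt
Lrrc41: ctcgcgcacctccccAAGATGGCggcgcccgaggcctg
Apart from Mia2, which has A at the free position, these matches carry the AAGATGGC form.

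Several wide peaks outside promoters lay on tRNA genes. For the pair whose tRNA gene was nearest to the summit, the gene is shown in capitals on its own strand, at chr1:165642256-165642357 (n-TPcgg2, tRNA-Pro, minus) and chr11:48856622-48856724 (n-TVaac7, tRNA-Val, plus).
n-TPcgg2: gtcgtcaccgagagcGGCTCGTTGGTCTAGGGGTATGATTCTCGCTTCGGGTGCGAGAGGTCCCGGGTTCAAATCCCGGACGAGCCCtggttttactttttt
n-TVaac7: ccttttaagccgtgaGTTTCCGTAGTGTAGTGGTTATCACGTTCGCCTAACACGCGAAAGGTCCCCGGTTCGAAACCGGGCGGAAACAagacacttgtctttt

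The wide peak with the highest fold enrichment was a tandem repeat in an intron of Cacng4. The 151 bases around its summit, chr11:107784615-107784765 on the plus strand, are shown with the peak's most frequent 8-base word, GCAGGTGT, in capitals.
Cacng4: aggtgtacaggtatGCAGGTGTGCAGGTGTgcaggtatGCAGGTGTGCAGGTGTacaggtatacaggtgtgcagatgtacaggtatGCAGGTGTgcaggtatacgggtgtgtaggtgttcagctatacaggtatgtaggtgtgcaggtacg
The word occurred 38 times over 1032 bp of that peak, with a median spacing of 16.0 bp.

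The wide peaks ranged from 801 to 4308 bp, with a median of 912 bp and quartiles of 849 and 1066 bp, against a median of 345 bp for the other peaks. Only 7 exceeded 1500 bp and 2 exceeded 2000 bp. Although they made up 4.49% of the peaks, the wide peaks held 11.1% of all bases under peaks. They were found on all 19 autosomes, from 5 on chromosome 18 to 17 on chromosome 11, and 0 of the 34 peaks on X and 0 of the 9 on Y were wide.

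Wide peaks were somewhat higher than the other peaks, and 14 of them were among the 100 peaks with the highest fold enrichment. Their fold enrichment, the ratio of summit fragments to local background with 1 added to each, had a median of 6.31 (quartiles 5.25 and 7.09), against 5.05 in the other peaks. The summit held a median of 18 fragments against 14, over the same median background of 1.98, at a depth of about 13357712 fragments. That depth is close to the number of uniquely mapping reads the paper gives for paired-end sequencing. A fragment here may therefore be a single read of a pair, which was not tested. The share of peaks that were wide went from 0 of 385 peaks with 8 to 10 fragments at the summit (upper limit 0.954%) to 5.28% (70 of 1325) of those with 14 to 16, 10.2% (38 of 372) with 20 to 22 and 10.1% (38 of 376) with 23 or more. Fragment number and width come from the same reads, so this is a description of the caller's output. Of the 210 members, 208 had a q-value under 0.05 and the largest q was 0.0763.

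**Figure D1:**
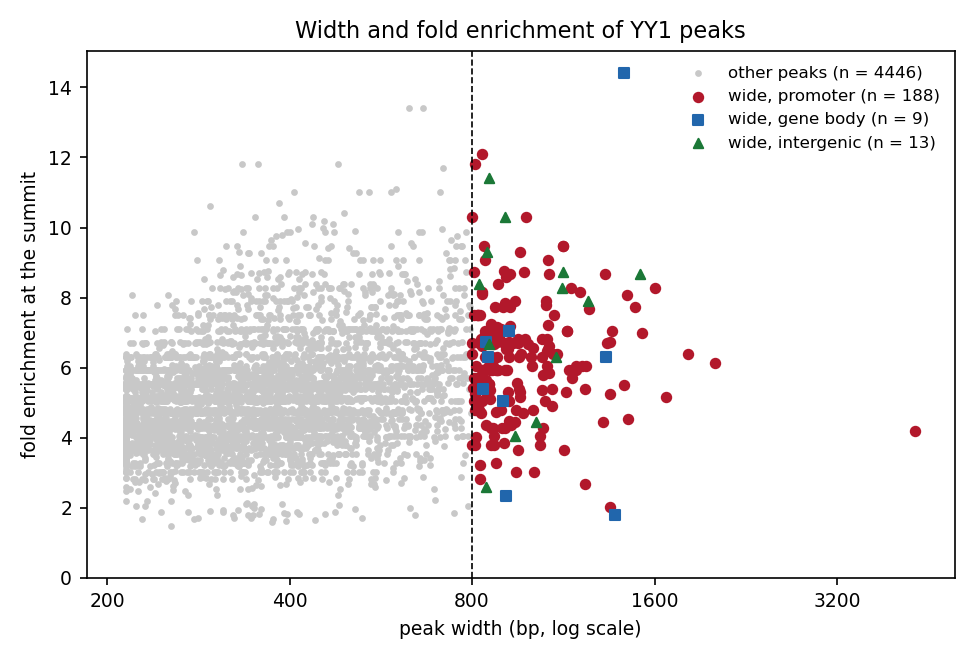
Each point is a YY1 peak, with its width in bp (log scale) against its fold enrichment at the summit; wide peaks are coloured by the position of the summit and the dashed line marks 800 bp. The wide peaks run from 801 to 4308 bp and from 1.78 to 14.4 in fold enrichment, and most of the 210 lie in promoters (188).

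The fold enrichments of the members just inside the width threshold and of the peaks just outside it overlapped. At 801 bp lay 4 peaks, those of Cdkn2aip (fold enrichment 10.3), of Sept7, a septin of the cytoskeleton (3.78), of Klc4 and Mrpl2, which encode a kinesin light chain and a mitochondrial ribosomal protein (6.40), and of Ahdc1 (6.70). Just outside were a 796 bp peak at Zfp653 (6.30), a 796 bp intergenic peak 2674 bp upstream of Tns2 (4.70) and a 794 bp peak shared by Plekhj1 and the splicing factor gene Sf3a2 (7.73).

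Of the 10 widest members, 9 had the summit in a promoter. The Brd2 peak (chr17:34118497-34120509, 2013 bp) lay at the gene for a bromodomain protein that reads acetylated histones. Its summit fell in an annotated exon, 348 bp upstream of the nearest start site, with 15 fragments over a background of 1.61 (fold enrichment 6.12), and it held 3 copies of AANATGGC. The peak between Cbx3, which encodes a heterochromatin protein, and Hnrnpa2b1, which encodes an RNA-binding protein, was 1819 bp wide (chr6:51469238-51471056) and spanned 8 start-site positions, the most of any wide peak. There the summit stood 21 bp inside Cbx3, with 18 fragments over 1.98 (6.39).

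Elf2, an ETS transcription factor gene, had a 1672 bp peak (14 fragments over 1.91, fold enrichment 5.15), and Gabpb1, whose product is a partner of another ETS factor, had a peak of 1484 bp (22 over 1.98, 7.73). Ncoa2, which encodes a nuclear receptor coactivator, had a 1605 bp peak with the summit 746 bp upstream of the nearest start site (20 over 1.54, 8.28). Cecr2, the gene of a bromodomain subunit of a chromatin remodelling complex, had 1444 bp (17 over 2.96, 4.54). A 1528 bp peak covered the start site of Lrrc41 (17 over 1.57, 7.0), and a start site of Uqcrh, a subunit gene of respiratory complex III, lay outside it but within 1000 bp of its summit.

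A 1441 bp peak (chr6:113076351-113077791) lay between Setd5, a SET-domain gene, and Gt(ROSA)26Sor, and rose to 22 fragments over 1.85 (fold enrichment 8.08). Its summit was 22 bp upstream of Setd5. Gt(ROSA)26Sor is the locus into which the R26YFP reporter of these mice was inserted, and the part of the reporter in this peak was not tested. The only 1 of the 10 outside promoters was a 1515 bp intergenic peak at chr9:121929372-121930886, of which 95.4% was repeat-masked and 93.2% of 50-base stretches occurred more than once in the chromosomes. It had 21 fragments over 1.54 (8.68).

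The widest member and its neighbour lay on ribosomal DNA. RefSeq places Rn18s-rs5, a sequence related to the gene of the 18S ribosomal RNA, at chr17:39846354-39848202. A peak of 4308 bp (chr17:39842998-39847305) covered 952 bp of it and a peak of 1351 bp (chr17:39847476-39848826), 170 bp away, covered another 727 bp. They had 321 fragments over a background of 75.8 (fold enrichment 4.19) and 290 over 143 (2.02). Both signal and background were far above those of nearly all other members. A further pair in the gene 2700054A10Rik (chr17:13550662-13551572 and chr17:13551747-13553125) had backgrounds of 65.2 and 148 and fold enrichments of 2.34 and 1.78, and a peak near Tmem125 (chr4:118547204-118548046) had a background of 38.5 and a fold enrichment of 2.58. These 5 were the wide peaks with a background over 10, and the highest among the other members was 5.93. Most ribosomal DNA copies are missing from the assembled genome, and the part of unassembled or collapsed copies in these values was not tested.

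Promoters, here the ground up to 1000 bp upstream or downstream of any annotated start, held most wide peaks. The summit was there in 188 of 210 wide peaks (89.5%, 95% exact binomial interval 84.6 to 93.3%), compared with 85.1% (84.0 to 86.1%) of the other peaks. Gene bodies outside promoters held 9 (4.29%, 1.98 to 7.98%), compared with 8.34% (7.55 to 9.20%), and intergenic ground held 13 (6.19%, 3.34 to 10.4%), compared with 6.57%. The summit fell in an annotated exon in 83 wide peaks (39.5%, compared with 46.6% of the other peaks). It fell in an intron in 57 (27.1%, compared with 25.1%) and outside genes in 70 (33.3%, compared with 28.3%). Median fold enrichment was 6.30 in promoters, 6.31 in gene bodies and 8.28 in intergenic ground. Across the widths of all peaks, the promoter share was 80.1% at 215 to 299 bp, 92.7% at 500 to 599 bp and 91.8% at 600 to 796 bp. It was 90.6% at 801 to 991 bp and 87.5% from 1000 bp up, so it was no higher than in the peaks just under the threshold.

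Wide promoter peaks reached to either side of the start site by more than the other peaks, as selection on width brings with it, so the values here are a description. Of the 188, 172 (91.5%, 86.5 to 95.1%) covered the start site nearest to the summit, compared with 72.0% (70.6 to 73.5%) of the other promoter peaks. Where it was covered, the peak ran a median of 442 bp upstream and 501 bp downstream of it, against 171 and 191 bp in the other peaks. A wide peak was also less centred on its own summit, which stood a median of 28.3% of the width from the nearer end, compared with 35.7%.

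**Figure D2:**
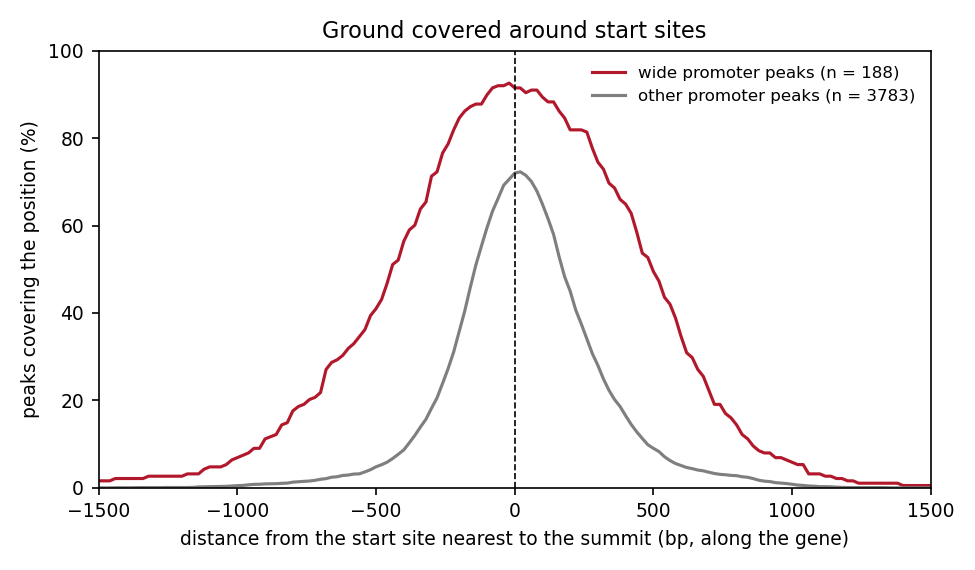
The share of promoter peaks (in percent) that cover each position is plotted against the distance from the start site nearest to the summit, in bp along the gene, for wide (red) and other (grey) promoter peaks. At 360 bp upstream 60.1% of the wide peaks and 12% of the other peaks cover the position, and at 620 bp downstream 30.9% and 4.65%.

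The summits of wide promoter peaks were more often upstream of the start site. They were upstream in 109 of 188 (58.0%, 50.6 to 65.1%), compared with 45.4% (43.8 to 47.0%) of the other promoter peaks, and the intervals did not overlap. Across width, the upstream share was 44.2% for peaks of 215 to 299 bp, 47.4% at 500 to 599 bp, 48.2% at 600 to 796 bp, 58.4% at 801 to 991 bp and 57.1% from 1000 bp up. The median distance from the nearest start site was 156 bp for all wide peaks and 120 bp for the other peaks. Within 100 bp of the start site lay 42.0% (34.9 to 49.4%) of the wide promoter summits against 52.2% (50.6 to 53.8%).

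Cltc, which encodes the clathrin heavy chain, had the highest fold enrichment of the wide promoter peaks. Its 830 bp peak (chr11:86757450-86758279) rose to 42 fragments over 2.55, a fold enrichment of 12.1, with the summit 50 bp upstream of the start site, and it reached 714 bp upstream and 115 bp downstream of that site. Tram1, the gene of a protein that helps nascent chains into the endoplasmic reticulum, came next with 29 fragments over 1.54 (11.8). Its 810 bp peak (chr1:13589315-13590124) leaned the opposite way, 214 bp upstream and 595 bp downstream. The peak of Cdkn2aip, whose product binds the tumour suppressor ARF, was 801 bp wide and had 29 fragments over 1.91 (10.3).

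Many wide peaks took in more than 1 start site. Start sites of at least 2 genes lay inside 46 of 210 (21.9%, 16.5 to 28.1%), compared with 10.1% (9.25 to 11%) of the other peaks, and start sites on both strands inside 42 (20.0%, 14.8 to 26.1%), compared with 9.13% (8.30 to 10%). In 34 of those 42 a minus-strand start site lay to the left of a plus-strand start site, the arrangement of a divergent promoter. The same held for 333 of the 406 other peaks with start sites on both strands. A longer peak covers more start sites. Within a fixed 400 bp either side of the summit, 15.7% (11.1 to 21.4%) of wide peaks and 17.8% (16.7 to 18.9%) of the other peaks had start sites of at least 2 genes, and 15.2% (10.7 to 20.8%) and 16.4% (15.3 to 17.5%) had them on both strands. In this equal window both pairs of intervals overlapped. By width, the share with start sites of at least 2 genes in it was 15.5% at 215 to 299 bp and 22.2% at 600 to 796 bp. It was 15.9% at 801 to 991 bp and 15.3% from 1000 bp up. Per kb of peak, the wide peaks held 1.87 start-site positions against 2.95.

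The divergent pairs joined genes of different kinds. Smg6, an endonuclease gene of nonsense-mediated decay, and Srr, the serine racemase gene, shared a peak of 904 bp with 23 fragments over 1.74 (fold enrichment 8.75). Hdlbp, which encodes the RNA-binding protein vigilin, and the septin gene Sept2 shared 841 bp with 20 over 1.98 (7.06). Ddx31, an RNA helicase gene, and Gtf3c4, a gene of the factor that recruits RNA polymerase III, shared 887 bp with 18 over 1.70 (7.04). Cct7, a subunit gene of the cytosolic chaperonin, and Pradc1 shared 819 bp with a fold enrichment of 7.49. Median fold enrichment was 6.39 in the 42 peaks with start sites on both strands and 6.30 in the other 168.

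**Figure D3:**
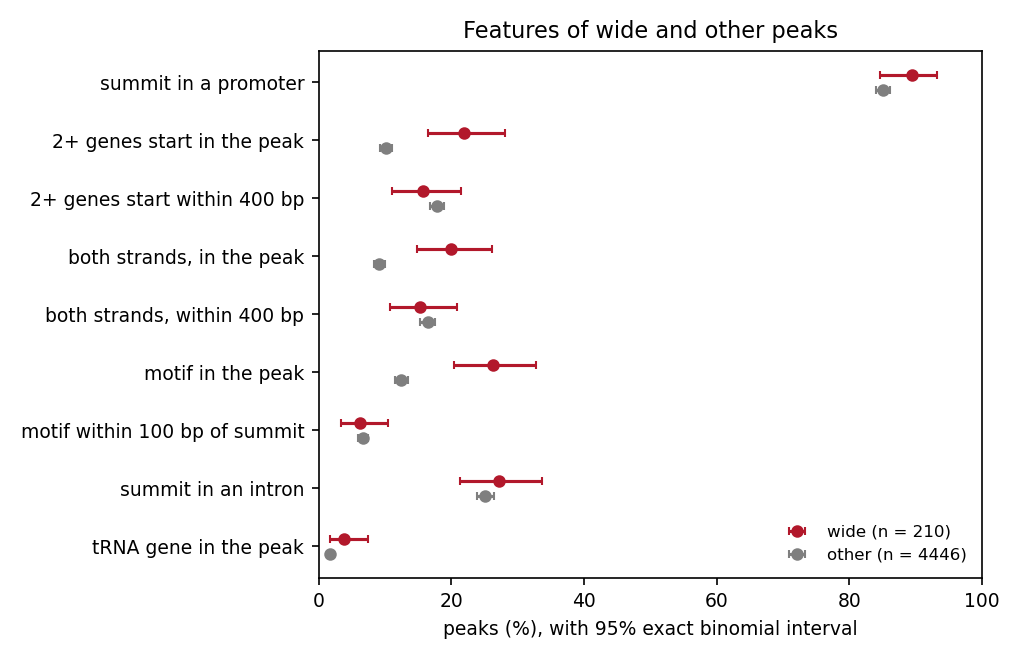
Points give the percent of wide (red, n = 210) and other (grey, n = 4446) peaks with each feature, and bars the 95% exact binomial interval. The YY1 motif is in 26.2% of wide and 12.4% of other peaks when the whole peak is searched, and in 6.19% and 6.68% within 100 bp of the summit.

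Near the summit, AANATGGC was no more frequent in wide than in other peaks. It was searched on both strands and found within 100 bp of the summit in 13 of 210 (6.19%, 3.34 to 10.4%) and 297 of 4446 (6.68%, 5.96 to 7.45%), and in 6.05% of 32851 RefSeq promoters, whose 300 bases exceed the window searched around a summit. Anywhere in the peak it was found in 55 wide peaks (26.2%, 20.4 to 32.7%) and in 12.4% (11.5 to 13.4%) of the other peaks. Stretches of the same length 2000 bp to either side of the wide peaks held it in 79 of 415 cases (19%, 15.4 to 23.1%). Per kb, the wide peaks had 0.342 copies and the other peaks 0.363. The 72 copies in wide peaks lay a median of 338 bp from the summit, against 97.0 bp for the 607 in the other peaks, and this distance grows with the width on which the members were selected.

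The 13 members with the motif near the summit had a median fold enrichment of 6.72, and the 197 without it 6.31. In 10 wide peaks there were 2 copies of the motif anywhere in the peak, in 2 there were 3 (Brd2 and Anp32b) and in 1 there were 4. The 4 copies were those printed for Yy1. Its peak, chr12:108793675-108794517, was 843 bp wide with 19 fragments over 1.98 (fold enrichment 6.72) and a summit 1345 bp downstream of the start site, inside the intron after exon 1. The 4 copies lay 172, 144, 107 and 82 bp before the summit by their midpoints, the first pair on the minus strand and the second pair on the plus strand. A separate peak of 227 bp, 754 bp away, had 17 fragments over 3.95 (3.64). Its summit lay within 1000 bp of a Yy1 start site but nearest to Gm34220, 19 bp upstream of it. Gm34220 was the only gene with a start site inside that peak.

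Among the 5 motif-bearing members with the highest fold enrichment, the distance from motif to start site varied. The Slain2 motif, in the gene of a microtubule plus-end protein, lay 13 bp downstream of the start site and 34 bp from the summit (20 fragments over 1.54, fold enrichment 8.28). The Hdlbp motif lay 14 bp downstream and 93 bp from its summit. Those of Smg6 and Lrrc41 lay 93 and 140 bp downstream, and all 4 were on the strand of the gene. The Mia2 motif, in the gene of a protein of endoplasmic reticulum exit sites, lay instead 226 bp upstream of the nearest start site and on the opposite strand (20 over 1.59, 8.10). In wide promoter peaks as a whole, 33 of 63 copies (52.4%, 39.4 to 65.1%) were downstream of the nearest start site, compared with 65.1% (61.1 to 69.0%) of 576 in the other peaks. Of those 33, 23 (69.7%, 51.3 to 84.4%) were on the strand of the gene, compared with 66.1% (61.1 to 70.9%).

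Wide peaks were slightly richer in G and C than the other peaks as a whole, but close to those just under the width threshold. Within 100 bp of the summit the median G and C content was 72.6%, compared with 69.7% in the other peaks. By width, the median was 67.7% at 215 to 299 bp, 72.1% at 500 to 599 bp and 71.6% at 600 to 796 bp. It was 72.6% at 801 to 991 bp and 72.9% from 1000 bp up. The observed over expected ratio of CpG within 100 bp of the summit was 0.960 compared with 0.918, and it was not split by width. In that window GGGCGG, the GC box bound by Sp and Klf factors, was present in 153 wide peaks (72.9%, 66.3 to 78.7%) and 58.9% (57.4 to 60.3%) of the other peaks, and in 35.7% of RefSeq promoters, which at 300 bases are longer than the window. The GC content moved with it, and its part in the GC box count was not tested. CCGGAAG, bound by ETS factors, was in 7.62% (4.42 to 12.1%) against 12% (11 to 13%) and in 8.86% of the promoters. CCAAT, bound by NF-Y, was in 13.3% (9.05 to 18.7%) against 16.1% (15.1 to 17.3%), with 37.4% among the promoters. TGACGTCA, the cAMP response element, was near 4 wide summits (1.90%, against 2.29% and 1.79%), and TCTCGCGA was near 3 (1.43%, against 1.64% and 0.995%). All were searched on both strands, and a match is not evidence of binding by the factor.

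A small number of members held tRNA genes. RefSeq lists 403 nuclear tRNA genes on these chromosomes, 83 peaks outside the array held at least 1, and 8 of these were wide (3.81% of wide peaks, 1.66 to 7.37%, compared with 1.69%, 1.33 to 2.11%, of the other peaks). The 8 wide peaks held 15 tRNA genes, since 5 held 2 and 1 held 3. The wide peaks with a single tRNA gene, at Wbp4 and at Mir6546, had the summit in a promoter. Of the 18 peaks with at least 2 tRNA genes, 6 were wide (33.3%, 13.3 to 59.0%), compared with 2 of the 65 with 1 (3.08%, 0.375 to 10.7%). A longer peak has more room for tRNA genes, and within 100 bp of the summit a tRNA gene was present in 5 wide peaks (2.38%, 0.778 to 5.47%) and in 1.53% (1.19 to 1.93%) of the other peaks. tRNA genes were held by 6 of the 13 intergenic wide peaks (46.2%, 19.2 to 74.9%) and 41 of the 292 other intergenic peaks (14%, 10.3 to 18.6%).

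In the tRNA-bearing wide peak with the highest fold enrichment, the summit fell between the genes. At chr10:91181358-91182265, 10139 bp upstream of Tmpo, tRNA-Trp and tRNA-Asp genes lay 238 and 376 bp from a summit of 25 fragments over 1.54 (10.3). The peak at chr13:21160700-21161546, with tRNA-Glu and tRNA-Phe genes, had 30 over 2.34 (9.29), and its summit was 34 bp from the nearer gene. At the printed tRNA-Pro gene, n-TPcgg2, the summit was inside the gene, in a peak of 1125 bp that also took in n-TPagg2 and had 20 fragments over 1.54 (8.28). The peak of the printed tRNA-Val gene was 1020 bp wide, with 21 over 3.95 (4.44) and the summit 5 bp from the gene. The peak with 3 tRNA genes, for Asp, Gly and Glu, was 1243 bp wide (chr1:171101928-171103170), with 22 over 1.91 (7.90).

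**Figure D4:**
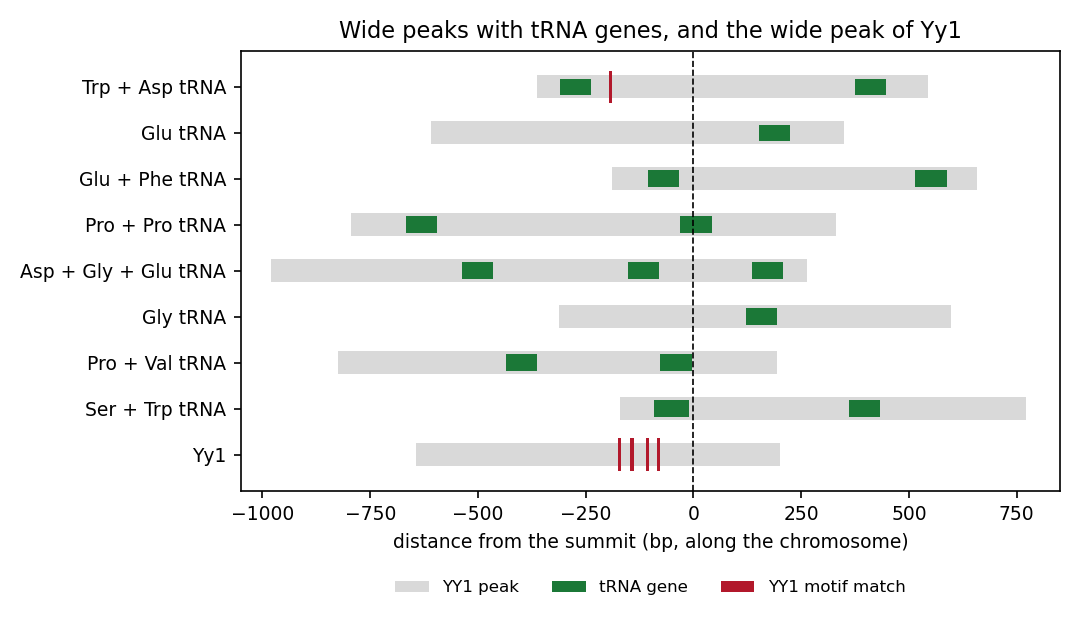
The 8 wide peaks with tRNA genes, from the highest fold enrichment down, and the wide peak in Yy1 are drawn to scale as grey bars around their summits (dashed line, distance in bp along the chromosome), with tRNA genes in green and AANATGGC matches in red. The summit is inside a tRNA gene in 1 of the 8, and the 4 matches of Yy1 lie 82 to 172 bp before its summit.

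Outside promoters, the highest fold enrichment was that of the repeat in Cacng4, a gene for an auxiliary subunit of AMPA-type glutamate receptors. Its peak, chr11:107783957-107785379, was 1423 bp wide and had 56 fragments over 2.96 (14.4), the highest of all 210. Of its 50-base stretches, 45.5% occurred more than once in the chromosomes, and no AANATGGC was present. The G and C content around the summit was 52.7% and the CpG ratio 0.193. An intergenic peak 10626 bp upstream of Twsg1, which encodes a secreted BMP-binding protein, had 33 fragments over 1.98 (11.4), with 41.8% G and C and none of its stretches repeated. A 1131 bp intergenic peak at chr4:133813288-133814418 had 25 over 1.98 (8.74). Among all wide peaks, 5 (2.38%, 0.778 to 5.47%) had at least 50% repeated stretches, compared with 4.61% (4.01 to 5.27%) of the other peaks.

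Protein-coding genes with a wide promoter peak numbered 213 of the 4113 with any promoter peak (5.18%, 4.52 to 5.90%). Genes of chromatin modifiers had a wide peak in 7 of 52 cases (13.5%, 5.59 to 25.8%). They were Setd5 (fold enrichment 8.08), Setd1a, a histone H3 lysine methyltransferase gene (6.81), Arid4b, a subunit gene of a histone deacetylase complex (6.70), Kmt5b, a histone H4 lysine methyltransferase gene (6.06), and the demethylase genes Kdm5a, Kdm1a and Kdm2b. Splicing genes had 4 of 41 (9.76%, 2.72 to 23.1%), all of the Hnrnp family, led by Hnrnpa0 (1130 bp, 9.46), with Hnrnpul1 (6.70), Hnrnpa2b1 and Hnrnpul2 (5.38). Translation factor symbols had 4 of 35 (11.4%, 3.20 to 26.7%). These were Eif1ad (9.07), Eif4h, whose product aids an RNA helicase of translation initiation (8.74), Eif2ak3, which encodes a kinase that slows initiation under endoplasmic reticulum stress (7.49), and Eif5 (5.10).

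Genes of ubiquitin and its relatives had 6 of 85 (7.06%, 2.63 to 14.7%), among them Cul4a, a ubiquitin ligase scaffold gene (fold enrichment 8.68), Usp12, a deubiquitinase gene (7.49), and Ube2n (6.81). Chaperone genes had 3 of 36 (8.33%, 1.75 to 22.5%), Cct7 (7.49), Hsph1 (6.87) and Dnajc3 (5.52). The transcription machinery had 3 of 43 (6.98%, 1.46 to 19.1%), Gtf3c4 (7.04), the TFIIH subunit gene Gtf2h1 (6.70) and Gtf2i (6.70). RNA helicases had 2 of 25 (8%, 0.984 to 26%), Ddx31 and Ddx5 (5.80), and mitochondrial ribosomal proteins 2 of 29 (6.90%, 0.846 to 22.8%), Mrpl40 (7.49) and Mrpl2. Zinc finger symbols had 5 of 117 (4.27%, 1.40 to 9.69%), including Zbtb14 (7.49), Zfp654 (6.53) and the neighbours Zbtb1 and Zbtb25 (4.04), of which only Zbtb1 has a start site inside the peak. Oxidative phosphorylation had 1 of 41 (2.44%, 0.0617 to 12.9%), Uqcrh.

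None of the promoter-bound genes of 3 lists had a wide peak. These were the cytosolic ribosomal proteins (0 of 40, an upper limit of 8.81%), vesicle traffic (0 of 60, 5.96%) and histones (0 of 20, 16.8%). Apart from chromatin modifiers, the interval of every list included 5.18%, and with 13 lists compared and no replicate no list is called different from the other genes. Genes that share a peak are counted each, so they are not independent.

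**Figure D5:**
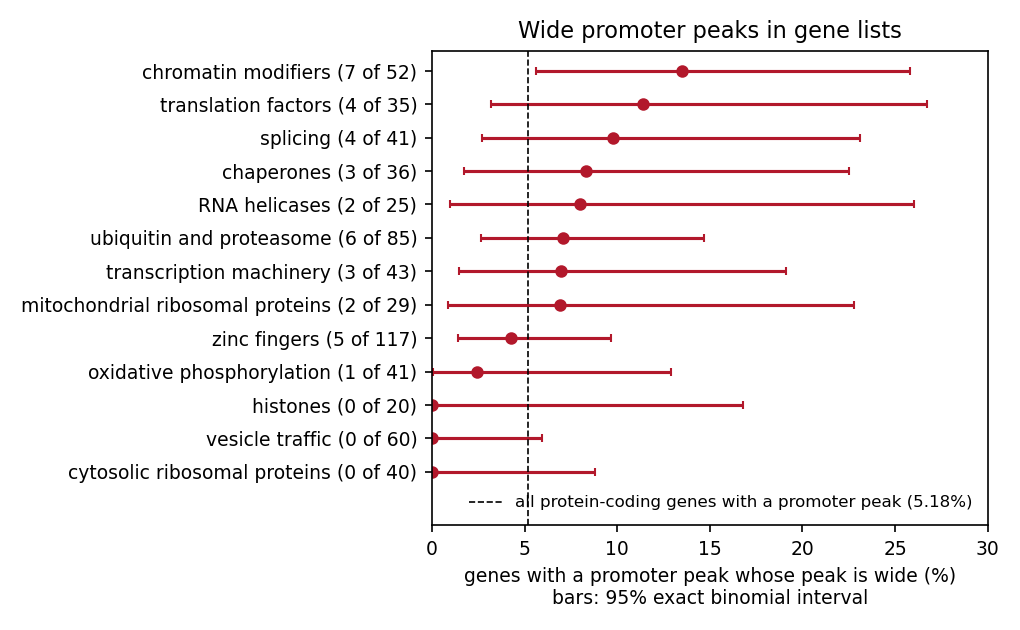
For each gene list, the percent of its genes with a promoter peak whose peak is wide is plotted with its 95% exact binomial interval, and the dashed line marks 5.18% for all protein-coding genes with a promoter peak. Chromatin modifiers are highest, at 13.5% (7 of 52), and 3 lists are at 0.

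Small RNA genes of other kinds (snRNA, snoRNA, scaRNA and miRNA) lay in 5 wide peaks (2.38%, 0.778 to 5.47%), compared with 0.877% (0.624 to 1.20%) of the other peaks, and all 5 were annotated as miRNA genes. They were Mir5131 in the Ddhd1 promoter, Mir7238 at Ankrd10, Mir6546 beside a tRNA-Gly gene, and the predicted genes Gm24157 at Ppp2ca and Gm23880 at Ep300. A longer peak has more room for these genes as well. No equal window was searched for them, so the shares are not read as a difference between the sets. A peak list does not measure expression, so the identity of the cells could not be checked from it. Of 13 marker genes of MuSCs, fibro-adipogenic progenitors, macrophages and endothelium, 0 had a wide peak and 3 had another peak, namely Pax7 (352 bp, fold enrichment 2.65), Cdh15 (329 bp, 3.23) and Cd68 (234 bp, 4.70). Myf5 and Myod1 were among those with none. Over all 21911 protein-coding genes, 4113 had a promoter peak and 213 a wide one, so these counts are not read as a trait of the markers.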

How the data were processed

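YY1 ChIP-seq was done on MuSCs with 1 library for YY1 and 1 for background, and the authors deposited 1 peak list, with the YY1 library as the only sample with values analysed here. Per the Methods, the authors removed adapters and low-quality reads, aligned the rest to mm10 (Bowtie2), dropped redundant reads, and ran MACS2 at a p-value limit of 0.0001 (versions not given in the sources used here). The fold enrichment in the deposited file is the ratio computed by the caller, and the p- and q-values, deposited as −log10, describe counting within this pair of libraries, not spread between animals. Peak width could depend on depth, which was not varied here.

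Fragments and background at each summit were worked out from fold enrichment and p (largest error 3.00e-04 in −log10 p), and depth from the commonest background, 1.54, taking the narrowest peak, 215 bp, as fragment length. Start sites were those of GENCODE M21 basic, genome and tRNA genes those of RefSeq GRCm38.p6, and promoter sequences those of RefSeq. Shares carry exact (Clopper-Pearson) binomial intervals at 95%, for counting error alone. With 1 library no test between conditions was made. Named peaks are the 10 widest, the 5 highest in fold enrichment among all members, with the motif within 100 bp and outside promoters, the 3 nearest the width threshold on each side (of 4 tied members, those of lower fold enrichment), and up to 4 genes per list (symbol prefixes), with 1 gene of these not reported here. Other genes, the ribosomal and 2700054A10Rik loci, Yy1, tRNA genes and motifs other than the YY1 motif were chosen after their values were seen. Members and lists were chosen with earlier results of these data known. Alternatives changed the width and peak thresholds, promoter and motif windows, annotation and repeat handling. Python 3 (numpy, pandas, scipy, pysam) was used, and the searches were tested on simulated data.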

Additional observations from a re-analysis of the deposited data

How the results depend on the processing

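With a width limit of 600 or 1000 bp there were 610 or 72 members in place of 210, a start site lay a median of 120 bp from the summit at 600 bp, and start sites of at least 2 genes lay in 29.2% of peaks at 1000 bp. A fold enrichment of at least 5 raised the median fold enrichment to 6.70, by construction. The promoter share was 82.4% within 500 bp of a start site (79.5% in the other peaks) and 72.9% from 1000 bp upstream to 100 bp downstream (66.7%). For the motif the share was 2.38% within 50 bp of the summit (3.53%), 26.2% in the whole peak (12.4%), 3.33% for AAGATGGC (3.64%) and 24.8% for ATGGC (30.3%). With protein-coding start sites only, 13.8% held start sites of at least 2 genes (5.67%) and 13.3% on both strands (5.06%). In a window of 400 bp either side, 15.7% held start sites of at least 2 genes (17.8%). The comprehensive GENCODE set gave a median distance of 124 bp (92.0 bp). Of 57 alternative values, 42 stayed within the interval of the value reported or, for counts, within 1.5 times it. No paired analysis was possible because 1 library was deposited as peaks and no test was made. No replicate could be left out. The lowest summit held 8 fragments over all peaks and 11 among the wide peaks, and how peak width changes with depth was not tested.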
